A study of Mus musculus with 2 samples.

Results

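The miR-181 family is a set of 6 microRNA genes in mouse that lie as 3 pairs of neighbours on chromosomes 1, 2 and 8. They were chosen by their GENCODE M21 symbols and were matched by gene identifier in both count tables, where they make up 6 of 2202 microRNA genes. The tables hold small RNA libraries from gastrocnemius, the large muscle of the calf, of B6CASTF1/J females aged 36 days, which are offspring of a cross between C57BL/6 and CAST/EiJ. There were 2 libraries, numbered as biological replicates 1 and 2, in a single untreated group with no genetic change named. Both records carry the same donor identifier, and the labels also describe separate females, so differences between the libraries measure the spread between these samples and may be technical.

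A microRNA gene is transcribed into a longer RNA that folds into a hairpin, from which a 5p arm and a 3p arm are cut. Usually one arm is loaded into Argonaute and pairs with target messages through its seed, bases 2 to 8 from its 5′ end. The miR-181 microRNAs are known from lymphocyte development, where miR-181a tunes T cell receptor signalling. They are also known from endothelial inflammation and from myoblast differentiation, where miR-181 represses the homeobox protein Hox-A11.

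The sequences of the arms are shown first because they decide which reads a table of single-locus reads can hold. All 12 annotated arms of the 6 genes were found in the RefSeq microRNA table of build GRCm38.p6, and they comprise 10 distinct sequences. The 5p arms have 4 distinct sequences, printed here 5′ to 3′ with the seed in capitals.
miR-181a-5p, from Mir181a-1 and Mir181a-2: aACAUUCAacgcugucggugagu
miR-181b-5p, from Mir181b-1 and Mir181b-2: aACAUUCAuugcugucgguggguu
miR-181c-5p, from Mir181c: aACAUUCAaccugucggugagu
miR-181d-5p, from Mir181d: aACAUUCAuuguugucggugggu

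All 6 genes carry the seed ACAUUCA in their 5p arm, and no other gene among the 1738 mature entries of the table has it. Counted from 1 at the 5′ end, miR-181d-5p differs from miR-181b-5p over their 23 common bases by the substitution C12U. miR-181c-5p is 1 base shorter than miR-181a-5p and is 1 edit away from it. The duplicated arms, miR-181a-5p and miR-181b-5p, each occur in 2 hairpins.

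The 3p arms have 6 distinct sequences, so this arm tells the copies apart.
miR-181a-1-3p: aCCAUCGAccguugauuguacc
miR-181a-2-3p: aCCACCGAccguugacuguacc
miR-181c-3p: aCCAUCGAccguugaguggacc
miR-181b-1-3p: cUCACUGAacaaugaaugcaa
miR-181b-2-3p: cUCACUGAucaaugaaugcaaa
miR-181d-3p: cCCACCGGgggaugaauguca
From miR-181a-1-3p, the substitutions U5C and U16C give miR-181a-2-3p, and U16G and U19G give miR-181c-3p. miR-181b-1-3p and miR-181b-2-3p differ by A9U over 21 common bases. The seed CCAUCGA was shared by the 3p arms of Mir181a-1 and Mir181c and the seed UCACUGA by those of Mir181b-1 and Mir181b-2, while the seeds of miR-181a-2-3p and miR-181d-3p stood alone in the table.

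The hairpins of the duplicated genes show how far the copies match. Capitals mark the longest stretch that the copies have in common.
Mir181a-1: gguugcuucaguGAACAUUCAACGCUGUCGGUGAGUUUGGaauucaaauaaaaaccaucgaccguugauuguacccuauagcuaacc
Mir181a-2: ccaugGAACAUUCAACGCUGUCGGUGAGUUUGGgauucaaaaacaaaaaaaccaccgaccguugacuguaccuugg
Mir181b-1: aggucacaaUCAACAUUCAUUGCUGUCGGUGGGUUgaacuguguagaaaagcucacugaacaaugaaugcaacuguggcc
Mir181b-2: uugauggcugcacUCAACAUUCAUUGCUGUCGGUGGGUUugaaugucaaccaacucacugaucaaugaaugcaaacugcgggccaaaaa

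The stretch common to Mir181a-1 and Mir181a-2 was 28 bases long. It began 1 base before the 5p arm and ran 4 bases past its 3′ end. The stretch common to Mir181b-1 and Mir181b-2 was 26 bases long and ended exactly with the annotated 5p arm, after which Mir181b-1 has G and Mir181b-2 has U. A read that runs 1 genomic base past this arm therefore matches only one of the copies. Among the 1005 hairpins of the table, 7 of 66 windows of 22 bases in Mir181a-1 and 7 of 55 in Mir181a-2 occurred in another hairpin. The counts were 5 of 59 windows in Mir181b-1, 5 of 68 in Mir181b-2 and 0 of 51 in Mir181d. The hairpin of Mir181c was not analysed here, and neither of its arms occurred in another hairpin of the table.

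**Figure D1:**
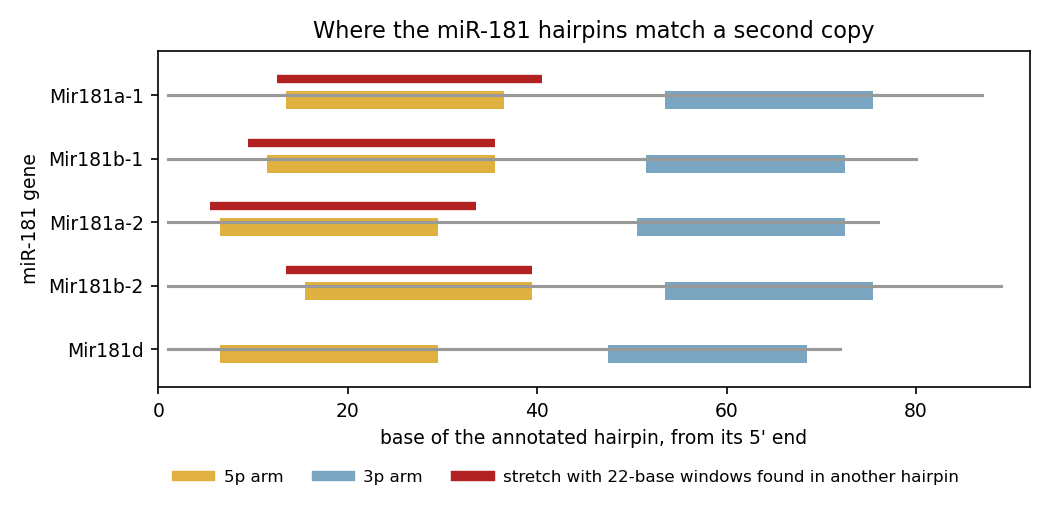
Annotated hairpins of 5 miR-181 genes drawn to scale from the 5′ end (x axis, bases), with the 5p arm in yellow, the 3p arm in blue and, as a red bar, the stretch whose 22-base windows occur in another hairpin of the table. The bar covers the whole 5p arm of Mir181a-1, Mir181b-1, Mir181a-2 and Mir181b-2, covers no 3p arm, and is absent from Mir181d.

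The tables count only reads with a single match in the genome. A read that lies within the common stretches matches both copies and was therefore not counted for Mir181a-1, Mir181a-2, Mir181b-1 or Mir181b-2. The tables give 1 value per hairpin gene, so the arms behind a count are not told apart. The levels of these 4 genes below are levels of reads placed at a single locus and not levels of miR-181a-5p or miR-181b-5p.

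The first cluster is on chromosome 1, on the plus strand of build mm10, with Mir181a-1 (ENSMUSG00000065565.1) at chr1:137966455-137966541 and Mir181b-1 (ENSMUSG00000065458.1) at chr1:137966639-137966718, 97 bases apart. Both lie in an intron of the noncoding transcript Gm4258 on the same strand and opposite an intron of the long noncoding RNA Gm26936. Both also overlap an exon of the long noncoding RNA A430106G13Rik on the same strand. That RNA starts at chr1:137966531, so Mir181a-1 overlaps it only at its 3′ end. The second cluster, on the plus strand of chromosome 2, holds Mir181a-2 (ENSMUSG00000065423.1) at chr2:38852735-38852810 and Mir181b-2 (ENSMUSG00000065578.1) at chr2:38853830-38853918, 1019 bases apart. It lies opposite an intron of Nr6a1, which encodes an orphan nuclear receptor, and Mir181b-2 also lies opposite an exon of Gm44144. The third cluster, on the minus strand of chromosome 8, holds Mir181c (ENSMUSG00000065483.2) at chr8:84178873-84178961 and Mir181d (ENSMUSG00000076338.1) at chr8:84178716-84178787, 85 bases apart. This pair lies in an intron of Nanos3, a gene of germ cell maintenance, on the same strand. No member had a read on its opposite strand in either library, which allows up to 3 reads each.

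The reads assigned to microRNA genes summed to 1593787 in replicate 1 and to 2078101 in replicate 2. Reads that matched several places were 75.4% and 77.6% of all reads. CPM values are reads per 1000000 gene-assigned reads and carry no correction for length, since a small RNA read spans a whole arm. Intervals in brackets are exact 95% binomial (Clopper-Pearson) intervals and cover counting error only, because PCR copies cannot be recognised. Over the 273 genes with at least 10 reads in both libraries, called detected here, the chi-square between the libraries was 572 for each degree of freedom, so they are not the same library deposited again.

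Of the 6 genes, 5 were detected and Mir181b-1 was under the minimum. Mir181b-2 had the highest level of the family, with 957 reads in replicate 1 and 1328 in replicate 2, or 600.5 CPM (563 to 640) and 639 CPM (605 to 674). Mir181c followed with 716 and 787 reads, or 449 CPM (417 to 483) and 379 CPM (353 to 406). Mir181d had 389 and 802 reads, or 244 CPM (220 to 270) and 386 CPM (360 to 414). These 3 genes were above 166 CPM, the median level of detected genes, in both libraries, and so was Mir181a-1. Mir181a-1 had 409 and 401 reads, or 257 CPM (232 to 283) and 193 CPM (175 to 213). Mir181a-2 had 44 and 191 reads, or 27.6 CPM (20.1 to 37.1) and 91.9 CPM (79.3 to 106). Mir181b-1 was nearly empty, with 7 reads in each library, or 4.39 CPM (1.77 to 9.05) and 3.37 CPM (1.35 to 6.94), just above the 1.88 and 1.44 CPM that a count of 0 allows.

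By mean CPM the order was Mir181b-2 with 620 ± 27.3, Mir181c with 414 ± 49.9, Mir181d with 315 ± 100.3, Mir181a-1 with 225 ± 45.0, Mir181a-2 with 59.8 ± 45.5 and Mir181b-1 with 3.88 ± 0.724 (SD, n = 2). Mir181b-2 ranked 78 among the 273 detected genes and Mir181a-2 ranked 185. Mir181b-2 exceeded Mir181c in both libraries, by 1.34-fold (1.21 to 1.47) and 1.69-fold (1.54 to 1.85). Mir181c and Mir181d did not keep an order, since Mir181c was 1.84-fold higher (1.62 to 2.09) in replicate 1 and their ratio was 0.981 (0.888 to 1.08) in replicate 2. Nor did Mir181d and Mir181a-1, with a ratio of 0.951 (0.826 to 1.10) in replicate 1 and 2.00 (1.77 to 2.26) in replicate 2. The steps below were kept in both libraries: Mir181a-1 exceeded Mir181a-2 by 9.30-fold and 2.10-fold, and Mir181a-2 exceeded Mir181b-1 by 6.29-fold and 27.3-fold.

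**Figure D2:**
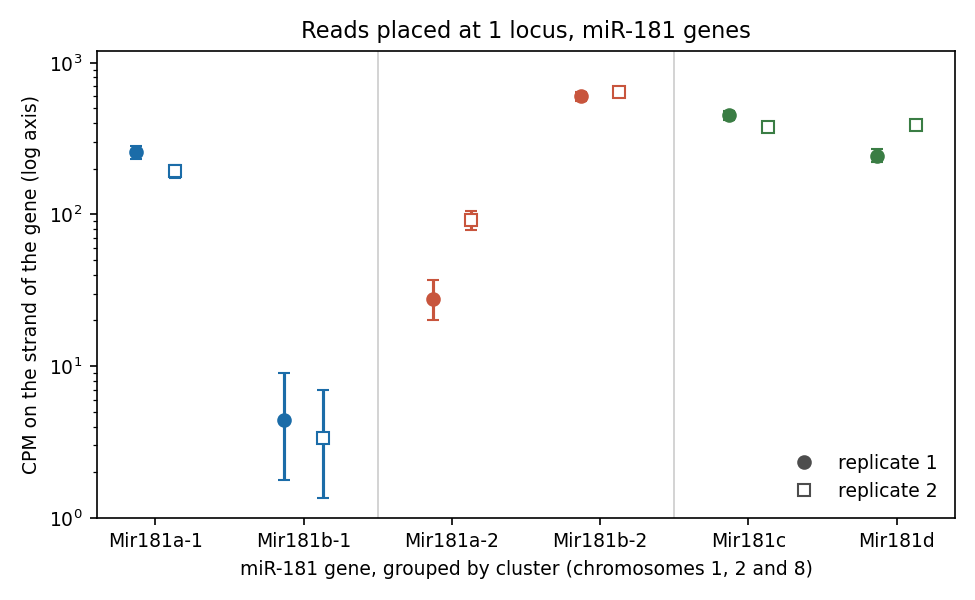
CPM (y axis, log scale) of the 6 miR-181 genes in replicate 1 (filled circles) and replicate 2 (open squares), with exact 95% counting intervals, grouped by cluster. Mir181b-2 is highest at 600.5 and 639 CPM, Mir181b-1 lowest at 4.39 and 3.37 CPM, and Mir181a-2 and Mir181d lie higher in replicate 2.

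The comparison of the clusters asked how the counted reads of the family divide over the 3 loci. All 6 genes together had 2522 reads in replicate 1 and 3516 in replicate 2, which is 0.158% and 0.169% of gene-assigned reads. The Mir181c/Mir181d cluster held 43.8% (41.9 to 45.8) of the family's reads in replicate 1 and 45.2% (43.5 to 46.9) in replicate 2. The Mir181a-2/Mir181b-2 cluster held 39.7% (37.8 to 41.6) and 43.2% (41.6 to 44.9). The Mir181a-1/Mir181b-1 cluster held the smallest part, 16.5% (15.1 to 18.0) and 11.6% (10.6 to 12.7). The chromosome 8 cluster exceeded the chromosome 2 cluster by 1.10-fold (1.01 to 1.20) in replicate 1, and in replicate 2 the ratio of 1.05 (0.974 to 1.12) did not differ from 1 beyond counting error. Both exceeded the chromosome 1 cluster in each library, by between 2.41-fold and 3.89-fold. Summed levels were 729 ± 50.4 CPM for Mir181c/Mir181d, 679.5 ± 72.8 for Mir181a-2/Mir181b-2 and 229 ± 45.7 for Mir181a-1/Mir181b-1 (SD, n = 2). Reads of the duplicated 5p arms are missing from the sums of chromosomes 1 and 2. Whether arms of Mir181c or Mir181d also match the genome outside annotated hairpins was not tested, and the sums do not rank the clusters by transcription.

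Within the clusters, the neighbours stood in opposite order on chromosomes 1 and 2. On chromosome 1 the miR-181a gene led: Mir181a-1 exceeded Mir181b-1 by 58.4-fold (28.1 to 146) in replicate 1 and 57.3-fold (27.5 to 143) in replicate 2. On chromosome 2 the miR-181b gene led, and Mir181a-2 reads were 0.0460 (0.0332 to 0.0622) of those of Mir181b-2 in replicate 1 and 0.144 (0.123 to 0.168) in replicate 2. On chromosome 8 the neighbours were close, with Mir181c making up 64.8% (61.9 to 67.6) of the pair's reads in replicate 1 and 49.5% (47.0 to 52.0) in replicate 2.

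A ratio of neighbours within a library does not depend on library size. For Mir181a-2 over Mir181b-2 it was 3.13 times as high in replicate 2 as in replicate 1 (exact conditional 95% interval 2.22 to 4.49). For Mir181c over Mir181d it was 1.88 times lower (1.60 to 2.20). For Mir181a-1 over Mir181b-1 the change was 0.980, and its interval of 0.291 to 3.31 is too wide to show a shift, since Mir181b-1 had 7 reads in each library. So the reads of neighbours moved unequally beyond counting error at both loci where the depth could show it. Counting error is a low bar here, since 63.0% of all 273 genes tested differed between the libraries by a test that knows it alone. How often other neighbouring genes shift as much was not tested.

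The copies that encode the same 5p arm were counted very unequally. Mir181b-2 exceeded Mir181b-1 by 137-fold (66.1 to 341) in replicate 1 and 190-fold (91.8 to 473) in replicate 2. Mir181a-1 exceeded Mir181a-2 by 9.30-fold (6.80 to 13.0) and 2.10-fold (1.76 to 2.51), a ratio that was 4.42 times lower in replicate 2 (3.07 to 6.47). For comparison, 14 of 15 other listed pairs of copies were matched, and 12 had reads from both copies in both libraries. Their higher copy exceeded the lower by a median of 6.43-fold in replicate 1 and 4.09-fold in replicate 2, and by at most 18.3-fold and 34.8-fold. The remaining pairs had a copy at 0 reads: Mir199a-2 had 30 and 37 reads against 0 and 0 of Mir199a-1, and Mir194-2 had 39 and 54 against 1 and 0 of Mir194-1. Where a copy had 0 reads the ratio has no upper bound, so these pairs are not part of this comparison. In replicate 1 the ratio of Mir194-2 over Mir194-1 was 39 (6.60 to 1579), above the highest of the 12 pairs in that library. None of the 12 had a ratio above that of Mir181b-2 over Mir181b-1. The intervals of the Mir194 and Mir199a pairs reach above that ratio in both libraries, so the Mir181b pair is not set apart from them. By point estimate, none changed between the libraries by more than Mir181a-1 over Mir181a-2. Mir26a-2 over Mir26a-1 was 3.36 times lower in replicate 2, and its interval of 0.997 to 14.7 covers the 4.42 of the Mir181a pair. The change of the Mir181a pair is therefore not set apart from that of every other pair. Among these 12 pairs, 4 changed with an interval that leaves out 1. The lengths over which the copies match differ between pairs, and their part in these ratios was not tested.

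**Figure D3:**
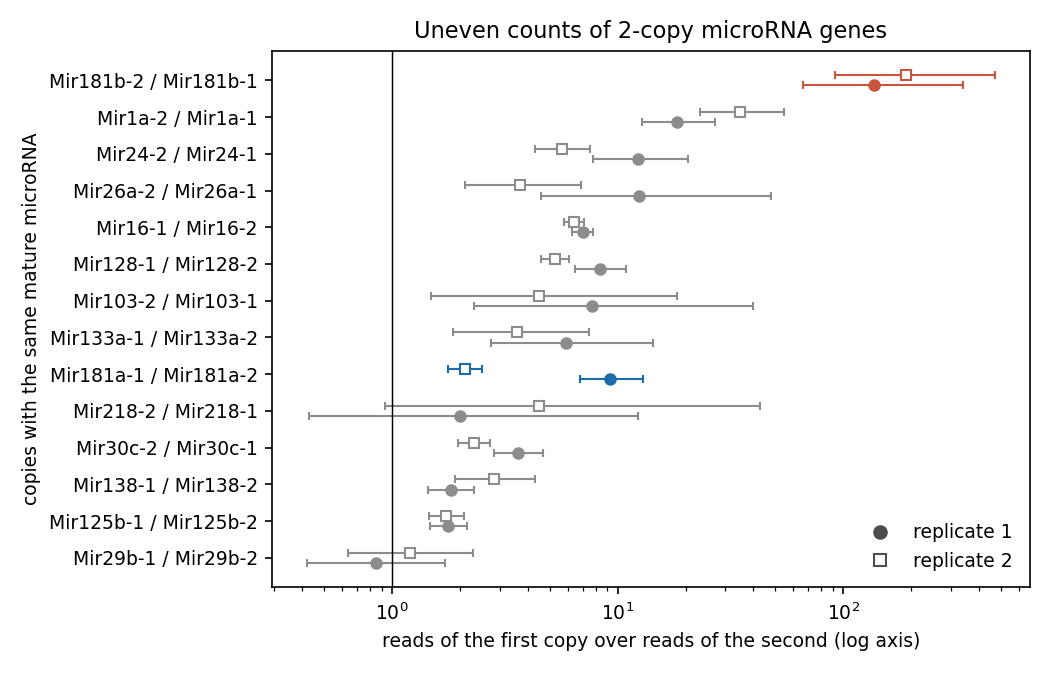
Reads of the first copy over reads of the second (x axis, log scale) for 14 pairs of genes with the same mature microRNA, in replicate 1 (filled circles) and replicate 2 (open squares), with exact 95% counting intervals. Of the pairs drawn, the Mir181b pair (red) lies farthest to the right at 137 and 190, and the Mir181a pair (blue) moves from 9.30 to 2.10. Pairs in which a copy had no read in a library are not drawn.

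The last comparison set the libraries against each other, gene by gene, after TMM scaling, with a two-sided exact binomial test that knows counting error alone. It compares these 2 libraries and no conditions. All 5 detected members passed at an adjusted p under 0.05, but so did 63.0% of all 273 genes tested, and the members' count is read against that share. In replicate 2, 3 members were higher, against 33.3% of all genes, and 2 were lower, against 29.7%. The median absolute log2 ratio was 0.34 over the 5 members and 0.36 over all detected genes.

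Mir181a-2 differed most within the family. It was 3.49-fold higher in replicate 2 (2.50 to 4.96; exact binomial test, adjusted p = 4.72e-16), and 10 of the 273 detected genes had a larger ratio in either direction. Mir181d was 1.66-fold higher (1.47 to 1.87; exact binomial test, adjusted p = 2.71e-16). Mir181b-2 was 1.11-fold higher (1.03 to 1.21; exact binomial test, adjusted p = 0.0186), which no longer passed when libraries were scaled by total reads (adjusted p = 0.200) or when the most abundant gene was left out (0.0605). Mir181a-1 was 1.27-fold lower (1.10 to 1.46; exact binomial test, adjusted p = 0.00167) and Mir181c 1.13-fold lower (1.02 to 1.25; exact binomial test, adjusted p = 0.0286). Mir181b-1 was not tested, and its fold of 0.803 had an interval of 0.240 to 2.68.

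When the common dispersion of the same libraries, a coefficient of variation of 0.335, was put into the exact test of edgeR, 4 genes or 1.47% passed and no member was among them. Mir181a-2 had an unadjusted edgeR p of 0.0171 (adjusted p = 0.403) and was the 1 member under 0.05 before adjustment, and the other 4 had an adjusted p of 1. That dispersion holds the difference between the libraries itself.

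**Figure D4:**
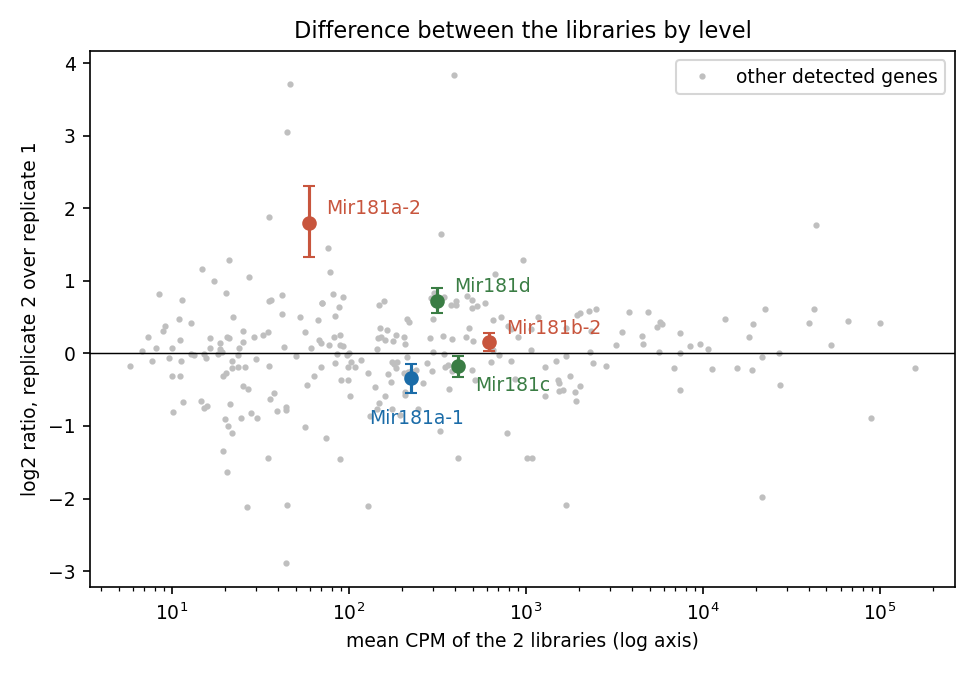
Log2 ratio of replicate 2 over replicate 1 (y axis) against mean CPM (x axis, log scale) for the 273 detected genes, with the 5 detected miR-181 genes coloured by cluster and given exact 95% counting intervals. Mir181a-2 at 1.80 stands near the upper edge of the other genes, and the other 4 members lie within their bulk, between -0.34 and 0.73.

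Summed by cluster, Mir181a-2/Mir181b-2 was 1.22-fold higher in replicate 2 (1.12 to 1.32) and Mir181c/Mir181d 1.16-fold higher (1.07 to 1.25), while Mir181a-1/Mir181b-1 was 1.27-fold lower (1.10 to 1.46). The change of the chromosome 1 cluster differed from that of the others beyond counting error. The fold of the chromosome 2 cluster was 1.55 times that of the chromosome 1 cluster (1.32 to 1.82), and the fold of the chromosome 8 cluster 1.47 times (1.25 to 1.72). Between the chromosome 8 and chromosome 2 clusters the change was 0.948 (0.847 to 1.06). The sums join genes that changed unequally. Mir181c was 1.13-fold lower and Mir181d 1.66-fold higher, while Mir181a-2 was 3.49-fold and Mir181b-2 1.11-fold higher. The chromosome 1 sum was nearly all Mir181a-1. These intervals too cover counting error only, which 63.0% of all 273 genes tested exceeded.

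The genes nearest to each cluster in level over the 2 libraries, by distance on the log2(CPM + 1) scale, were Mir16-2 (0.0742) and Mir455 (0.0831) for Mir181a-1/Mir181b-1. They were Mir351 (0.111) and Mir483 (0.155) for Mir181a-2/Mir181b-2, and Mir369 (0.177) and Mir1839 (0.208) for Mir181c/Mir181d. Within 50 kb of a member, other microRNA genes were found near the chromosome 8 cluster alone. Mir23a, Mir27a and Mir24-2, a cluster on the other strand that starts 29556 bases away, had folds in replicate 2 of 1.52 (1.51 to 1.54), 1.04 (0.956 to 1.13) and 1.13 (0.961 to 1.34). Gm25110 and Mir3074-2 had 0 reads.

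Lists of markers of other cell types are given beside these values. Their calls come from the same exact binomial test, which called 63.0% of all detected genes, 33.3% as higher and 29.7% as lower in replicate 2, and each count is to be read against those shares. The leukocyte list held 1587 CPM in replicate 1 and 2586 CPM in replicate 2, with 3 of 5 genes higher and 2 lower. Its genes with the most counted reads, Mir155 and Mir150, were 2.44-fold (2.27 to 2.63) and 1.65-fold (1.48 to 1.84) higher. Both are among the 3 higher genes, and the 2 lower genes are not named here. The rise of the sum is thus not shared by all genes of the list. The endothelial list had 1 gene higher and 2 not called of 3 detected, and its sum of 88612 and 112904 CPM came mostly from Mir126a, 1.34-fold higher (1.33 to 1.35), while Mir221 had a fold of 0.993 (0.887 to 1.11). In the neural list both detected genes, Mir128-1 and Mir128-2, were higher, by 1.73-fold and 2.75-fold. They made up nearly all of its sum of 392 and 689 CPM, while Mir9-1, Mir9-2 and the 3 Mir124a genes had no read. The rise of this sum therefore rests on the Mir128 genes and is not shown to be neural. All of the Mir9, Mir124a and Mir128 genes have copies elsewhere, so low counts do not show absence. The part of these cell types in the miR-181 differences was not tested, and fewer cells of a type and less RNA per cell cannot be told apart in whole tissue.

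No gene of the muscle list lacked reads altogether. Of the muscle list, 7 of 10 genes were detected. In replicate 2, 4 of them were higher, none lower and 3 not called, against 33.3% higher and 29.7% lower over all detected genes. Their median log2 ratio was 0.19, against 0.02 over all detected genes. The list's sum was 22093 CPM in replicate 1 and 69826 CPM in replicate 2, most of it from Mir206. Mir206 (3.40-fold, 3.36 to 3.45) and Mir486 (1.26-fold, 1.18 to 1.34) had the most reads placed at a single locus. Mir1a and Mir133a have copies whose common reads are not counted, so this is no order of the mature microRNAs. Among microRNAs of muscle differentiation, 16 of 17 genes were detected, with a median of 0.02. Of these, 5 were higher, 3 lower and 8 not called, against 33.3% higher and 29.7% lower over all detected genes. The genes of this list with the most counted reads were Mir378a, with a fold of 0.869 (0.864 to 0.873), and Mir322, with 1.04 (1.02 to 1.06). Among other families with the same mature microRNA at several loci, 21 of 28 matched genes were detected, with a median of -0.08. Of these, 6 were higher, 4 lower and 11 not called, to be read against the same shares. In this list the genes with the most counted reads were Mir16-1, with a fold of 0.773 (0.733 to 0.816), and Mir128-1. The 5 detected miR-181 genes had a median log2 ratio of 0.16.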

How the data were processed

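Libraries of small RNA (size range under 30 nucleotides, per the labels) from 2 gastrocnemius samples were analysed. The deposited tables hold raw read counts per microRNA gene on mm10 and GENCODE M21, per the file headers in the read-me text. Aligner and counter: not given in the sources used here. The tables have no header, and from layout and values the count column for the strand of the gene was used. The 4 summary rows, 83.3% and 85.2% of all reads, stayed out of library sizes and tests. Symbols and positions came from GENCODE M21 and sequences from RefSeq.

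Genes with at least 10 reads in both libraries were tested with an exact binomial test at TMM-scaled sizes (edgeR 4.0.16, R 4.3.3), with Benjamini-Hochberg adjustment over all 273. edgeR's quasi-likelihood test has no contrast in 1 group. The test was checked on simulated counts that held counting error alone, so the check does not cover the further spread between these libraries. The alternatives tried were strand-blind counts, other scalings (DESeq2 1.42.0), minimums and pseudocounts, the common dispersion, and leaving out the most abundant gene or a replicate. Python 3.11.15 and scipy 1.17.1 were used.

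Named genes were all members, the 2 genes nearest in level to each cluster, microRNA genes within 50 kb and the 2 most abundant of each of 6 lists. Members and lists were chosen with earlier results of these data known.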

Additional observations from a re-analysis of the deposited data

Results flagged for a closer look

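A large signal lay outside the gene counts. In replicate 1, 7195252 reads had several matches in the genome, and in replicate 2 there were 10919725, or 4.51 and 5.25 for each gene-assigned read. They are in no gene's count, and how many of them are reads of miR-181a-5p or miR-181b-5p is not analysed here.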

How the results depend on the processing

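Mir181a-1, Mir181a-2, Mir181c and Mir181d kept the direction and the call of the exact binomial test without regard to strand, with scaling by total reads, with DESeq2 size factors and with the most abundant gene left out. No member passed the exact test of edgeR at the common dispersion. Over all genes 4 passed that test in place of 172, and with at least 50 reads in both libraries, with no filter and under the other scalings 150 to 175 were called. Scaling by total reads turned the split of calls from 91 higher and 81 lower to 78 higher and 92 lower. Cluster folds stayed on the same side of 1 under every scaling run. Shares of gene-assigned reads depend on the total. Without regard to strand, where the total is smaller, Mir181a-1/Mir181b-1 held 0.0330% in place of 0.0229%, Mir181a-2/Mir181b-2 0.0975% in place of 0.0680% and Mir181c/Mir181d 0.105% in place of 0.0729%. With the most abundant gene left out, the latter clusters held 0.0807% and 0.0866%. Leaving out either replicate gave shares of 0.0196% to 0.0261%, 0.0628% to 0.0731% and 0.0693% to 0.0765%. For the log2 ratio within a cluster it gave 5.84 to 5.87 for Mir181a-1 over Mir181b-1, -4.44 to -2.80 for Mir181a-2 over Mir181b-2 and -0.03 to 0.88 for Mir181c over Mir181d, whose order was not kept. No paired analysis was possible because there is 1 group. With 7 reads in each library, depth limits every statement on Mir181b-1.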
